A study of Mus musculus with 12 samples.

Results

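The baseline transcriptome of intrahepatic cholangiocarcinoma, which arises from bile ducts within the liver, was described in mouse tumours that had received neither chemotherapy nor checkpoint blockade. The members were the 3 Control samples of 12 in the series, chosen by their group label alone. They came from tumours labelled 425-ICC in the arm given IgG as control, collected on the same schedule as the treated arms after 8 days, and their titles number them as replicates 1, 2 and 3. The other 9 samples, from arms given GC, dual ICB (blockade of 2 immune checkpoints) or both, enter no result here. The labels give no strain, sex, age, tumour site or number of animals for the Control samples, and name neither the cells the tumours were grown from nor their mutations.

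Bile duct cells, or cholangiocytes, are epithelial cells. They are recognised by the keratins KRT7 and KRT19, by the transcription factor SOX9 and by the secreted phosphoprotein osteopontin (Spp1), which macrophages secrete as well. Cholangiocarcinomas usually retain these features to a varying degree and grow in a dense stroma of fibroblasts, collagen and macrophages, which is one reason why bulk tumour RNA mixes many cell types.

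Levels are the FPKM values deposited by the authors, a measure scaled to transcript length and to the mapped fragments of the library. This scaling does not make libraries fully comparable, since the FPKM total and the share taken by the most abundant genes differed between them. Wherever 3 values of a gene or a gene list are given together, they are FPKM in Control replicates 1, 2 and 3, in that order. A mean is given as mean ± SD over n = 3 libraries. FPKM summed to 652022, 558450 and 660067 per library, and 14533, 15026 and 14923 of 24421 gene symbols were above 0. Read counts and depth are unknown, so a value of 0 says only that the gene is listed at 0. Each library is a single tumour sample, so a difference between libraries has no replicate check, and biological and technical differences between them cannot be told apart. With 1 group and no contrast, no test was run and no p-value is given. A separate origin from different animals is not stated.

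The markers of the biliary lineage were split. Spp1, which encodes osteopontin (chromosome 5, 104435118 to 104441050, GRCm38), was among the most abundant transcripts at 1761, 2456 and 1878 FPKM, with a mean of 2032 ± 372 FPKM and rank 62 of all symbols. Sox9, the progenitor and duct transcription factor (chromosome 11, 112782224 to 112787760), stood at 91.9, 54.8 and 43.5 FPKM. Both were present in all 3 libraries, and Sox9 was highest in replicate 1. Krt19, the type I keratin of ducts (chromosome 11, 100140810 to 100148665), was at 18.2, 0 and 0 FPKM. Krt7, its duct partner keratin (chromosome 15, 101411043 to 101430313), was at 2.699, 0.102 and 1.33 FPKM. Krt19 was therefore listed at 0 in replicates 2 and 3, and Krt7 was near the floor in replicate 2 and low in the others. The keratins thus go against the label in replicates 2 and 3, Spp1 and Sox9 do not, and the samples are called Control tumours below.

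The same division ran through the wider epithelial genes. Of 16 genes for epithelial keratins and adhesion, 5 had a mean of at least 1 FPKM and 3 (Krt23, Ocln and Esrp1) were listed at 0 in all libraries. The list median was 1.33, 0.112 and 0.0352 FPKM. Krt18, the simple epithelial partner of keratin 8, was at 15.4, 0.151 and 0.0703 FPKM and Krt8 at 6.41, 0.834 and 2.39 FPKM. Epcam, the epithelial cell adhesion molecule, was at 1.499, 0.575 and 0 FPKM, and the tight junction gene Cldn4 was at 2.33, 0.248 and 0 FPKM. Its relative Cldn3 was at 2.08, 0.0672 and 0 FPKM. These genes were highest in replicate 1, where Krt19 was also present. Cdh1, which encodes the adherens junction protein E-cadherin, took another order with 2.97, 9.73 and 6.18 FPKM and was lowest in replicate 1. Cd24a (13.8, 21.9 and 32.5 FPKM) and the junction scaffold Tjp1 (10.4, 10.5 and 9.16 FPKM), neither of them limited to epithelium, made up most of the rest of the list.

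**Figure D1:**
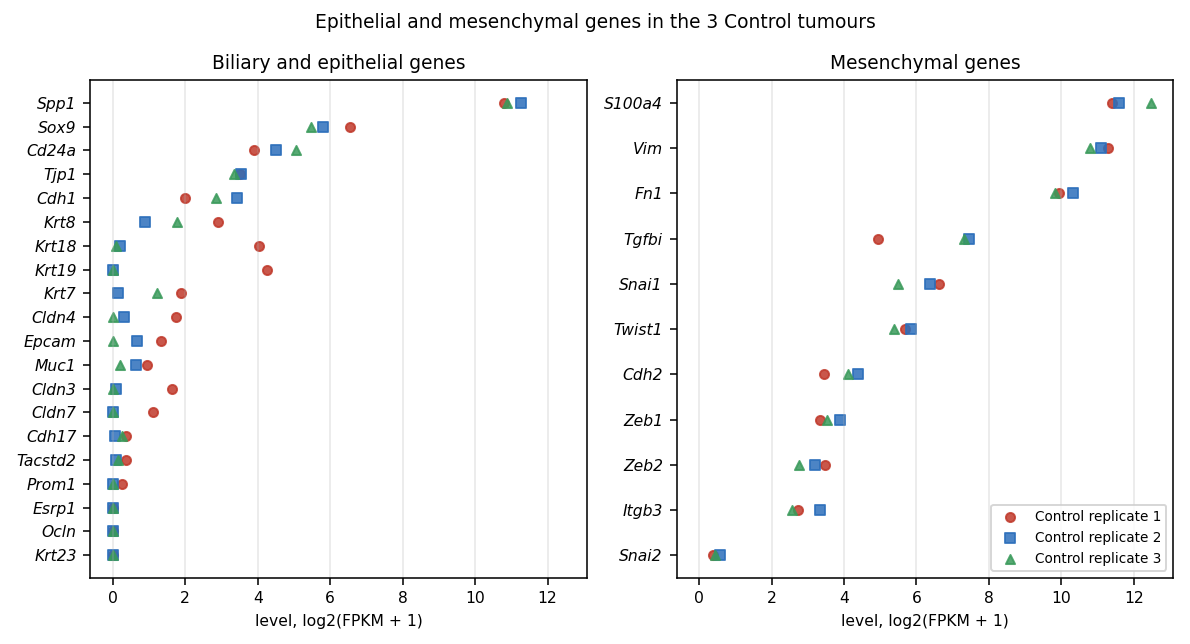
Level of each gene on a log2(FPKM + 1) axis in Control replicates 1 (circles), 2 (squares) and 3 (triangles), with biliary and epithelial genes on the left and mesenchymal genes on the right. Spp1 and Sox9 stand apart from the keratins, claudins and Epcam, most of which lie near 0 in replicates 2 and 3, whereas all mesenchymal genes shown but Snai2 have a mean of at least 1 FPKM.

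The keratin, claudin and mucin families as a whole were sparse. Of 52 keratin symbols, 8 had a mean of at least 1 FPKM and 35 were listed at 0 in all libraries, and after Krt19 and Krt18 the highest means were those of Krt10 (3.55, 3.66 and 4.65 FPKM), Krt80 (2.04, 4.46 and 4.88 FPKM) and Krt8. Krt10 and Krt80 are keratins of stratified and differentiating epithelium, and neither was limited to replicate 1. Of 32 claudin symbols 5 reached a mean of 1 FPKM, led by Cldn6, a claudin of embryonic epithelium that some tumours re-express, at 7.82, 38.6 and 64.2 FPKM, and by Cldn12 at 4.25, 14.6 and 18.5 FPKM. Both were lowest in replicate 1, opposite to Cldn3 and Cldn4. None of 10 mucin symbols reached a mean of 1 FPKM. Muc1, the membrane mucin of ducts, was at 0.936, 0.567 and 0.152 FPKM.

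Of further transcription factors of the duct and endoderm, those named here were low. Gata6, a factor of endoderm, stood at 2.29, 0.739 and 0.447 FPKM and Foxa1, a pioneer factor of endoderm, at 2.81, 3.998 and 2.97 FPKM. Onecut1, which takes part in duct development, was at 0.108, 0 and 0 FPKM, and Foxa2 was listed at 0 throughout. Gata6 and Onecut1 were highest in replicate 1. Genes of duct transport were mixed. The chloride channel Cftr and the glutathione-cleaving enzyme Ggt1 were listed at 0 in all libraries, while the anion exchanger Slc4a2 was even at 25.9, 29.2 and 24.8 FPKM and the water channel Aqp1, which endothelium and red cells also express, was at 29.7, 71.4 and 66.8 FPKM. Of the 15 genes in this list, 6 had a mean of at least 1 FPKM and 4 were listed at 0 in every library.

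Genes of the mesenchymal state were at the other end of the scale. The list of 12 had a median of 40.1, 62.6 and 42.1 FPKM. Vim, the intermediate filament vimentin of mesenchymal cells (chromosome 2, 13573927 to 13582826), was at 2519, 2190.1 and 1785 FPKM and ranked 60, close to Spp1. S100a4, a calcium-binding protein of motile and stromal cells, was at 2689.8, 3089 and 5644 FPKM, and fibronectin (Fn1) at 983, 1283 and 903 FPKM. All 3 were high in every library. Among transcription factors that repress epithelial genes, Twist1 was at 50.3, 56.4 and 40.5 FPKM, Snai1 at 97.8, 81.6 and 43.8 FPKM, Zeb1 at 9.09, 13.9 and 10.5 FPKM and Zeb2 at 10.2, 8.18 and 5.82 FPKM. Snai2 was at 0.295, 0.505 and 0.367 FPKM. N-cadherin (Cdh2) was at 9.82, 19.9 and 16.3 FPKM, above E-cadherin in all 3 libraries. Macrophages, fibroblasts and endothelium also express many of these genes, and in bulk RNA their part in the levels was not tested.

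Of the 11 tested mesenchymal genes 2 spread 4-fold, 1 with replicate 1 lowest and 1 with replicate 1 highest. Tgfbi, a secreted matrix protein induced by TGF-beta, was at 29.8, 174 and 157 FPKM and lowest in replicate 1. Across all 11812 genes averaging at least 1 FPKM, 5.08% spread at least 4-fold over the libraries, computed on FPKM + 1.

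Of 44 collagen symbols 24 had a mean of at least 1 FPKM and 7 were listed at 0 in all libraries. Among the fibrillar collagens of types I and III, Col1a2 was at 357, 679 and 453 FPKM, Col1a1 at 357, 493 and 227 FPKM and Col3a1 at 197, 326 and 118 FPKM. All 3 of these were highest in replicate 2. The type VI chains, which form beaded filaments around cells, were also abundant, with Col6a1 at 220.1, 281 and 185 FPKM and Col6a2 at 103, 205 and 123 FPKM. Collagen IV of basement membranes took another order, with Col4a1 at 153, 86.03 and 61.9 FPKM and Col4a2 at 95.4, 53.7 and 36.8 FPKM, both highest in replicate 1. The matricellular protein Sparc stood at 507, 215 and 352 FPKM and thrombospondin 1 (Thbs1) at 139, 156 and 110.3 FPKM, whereas laminin-332, the laminin of epithelial basement membranes, was low in the chains Lamb3 and Lama3. Its chain Lamb3 was at 1.601, 0.778 and 0.475 FPKM and Lama3 was listed at 0 in every library.

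Receptors for this matrix were abundant. Of 27 integrin subunits 18 had a mean of at least 1 FPKM. The shared beta chain Itgb1 was at 178, 273 and 221 FPKM, the vitronectin receptor chain Itgb5 at 116, 161 and 127 FPKM and the fibronectin receptor chain Itga5 at 122, 142 and 89.4 FPKM. The leukocyte chain Itgb2 was at 27.9, 64.03 and 78.9 FPKM and was lowest in replicate 1. Among matrix proteases, the membrane-bound Mmp14 was even at 129.6, 180.4 and 141 FPKM and the urokinase receptor Plaur at 92.2, 137 and 111 FPKM. The metalloproteinase inhibitors Timp1 and Timp2 exceeded the gelatinase Mmp2 and the protease Mmp9 in every library. Timp1 was at 266, 423 and 244 FPKM and Timp2 at 261, 192 and 168 FPKM. Mmp2 was at 42.6, 36.2 and 7.23 FPKM and Mmp9 at 3.298, 3.85 and 13.98 FPKM. Mmp7, matrilysin, a protease of glandular epithelium, was at 10.6, 0 and 0 FPKM and followed the pattern of Krt19.

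Fibroblast genes had a list median of 16.7, 34.2 and 10.9 FPKM over 14 genes, all with a mean of at least 1 FPKM. The collagen-binding proteoglycan Dcn (decorin) was at 76.3, 65.3 and 21.8 FPKM, periostin (Postn) at 41.4, 63.4 and 13.9 FPKM and the receptor Pdgfra at 11.9, 8.399 and 5.37 FPKM. Fap, the fibroblast activation protein, was at 0, 3.15 and 0.309 FPKM. Of the 14, 9 were highest in replicate 2 and 8 lowest in replicate 3, against 43.8% and 29.0% of all genes averaging at least 1 FPKM. Pdgfrb, the receptor of pericytes and fibroblasts, was more even at 58.04, 76.2 and 49.02 FPKM, and among contractile genes Tagln was at 191, 100.3 and 30.7 FPKM and Acta2 at 48.03, 31.7 and 12.4 FPKM, both lowest in replicate 3. The smooth muscle myosin Myh11 was at 1.01, 0.2096 and 0.134 FPKM.

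The most abundant transcripts of the Control tumours were those of the translation machinery. Of the 20 genes with the highest mean, 17 encode ribosomal proteins, and Eef1a1, the elongation factor that delivers transfer RNA to the ribosome, was at 7188, 5905 and 7475 FPKM. The others were Tpt1, a growth-related tumour protein, at 6540.1, 3565 and 4707 FPKM and S100a6, a calcium-binding protein of proliferating and stromal cells, at 3834, 3906 and 5682 FPKM. Ribosomal protein genes took 39.0%, 27.9% and 35.1% of all FPKM, and the 100 highest genes of each library 51.5%, 39.1% and 47.3%. Replicate 2 was lowest on each of these shares. The median log2 level of tested genes was 3.34 in replicate 1 and 3.69 and 3.57 in replicates 2 and 3. The median gene was lower in replicate 1 than the mean of the other two by a log2 difference of -0.25, and comparisons between libraries below are to be read against that shift.

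Some genes hardly varied. The 10 with the smallest range among genes of at least 50 FPKM were Cct5, Higd2a, Prelid1, Slc50a1, Cops7a, Mcfd2, Cfdp1, Nradd, Qsox1 and H2-K1. Cct5, a subunit of the chaperonin that folds actin and tubulin, was at 471, 473 and 470.4 FPKM. H2-K1, a classical class I heavy chain that presents peptides to CD8 T cells, was at 107, 103 and 107 FPKM. Apoe, made by macrophages and by many other cells, was also even at 771, 827 and 783 FPKM, with a log2 range of 0.10 against a median range of 0.64 over all tested genes.

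Of the 47 lists in the plot of list medians, glycolysis had the highest median, at 640.4, 262 and 339 FPKM. Aldoa (aldolase) stood at 1944, 806 and 814 FPKM, Ldha (lactate dehydrogenase) at 1292, 752 and 875 FPKM and Pkm (pyruvate kinase) at 1173, 811 and 766 FPKM. Stress of the endoplasmic reticulum and the integrated stress response were represented by the chaperone Hspa5 at 411, 302 and 271 FPKM, the transcription factor Atf4 at 468, 274 and 231 FPKM and its target Ddit3 at 157, 46.9 and 42.1 FPKM. Ddit3 was highest in replicate 1, and the list as a whole had a median of 45.2, 48.7 and 44.3 FPKM. NRF2 target genes, the antioxidant program, had a median of 11.6, 17.7 and 17.01 FPKM, with Prdx1 at 166, 242 and 356 FPKM, Hmox1 (haem oxygenase) at 214, 56.6 and 69.9 FPKM and Nqo1 at 7.899, 5.08 and 6.18 FPKM.

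**Figure D2:**
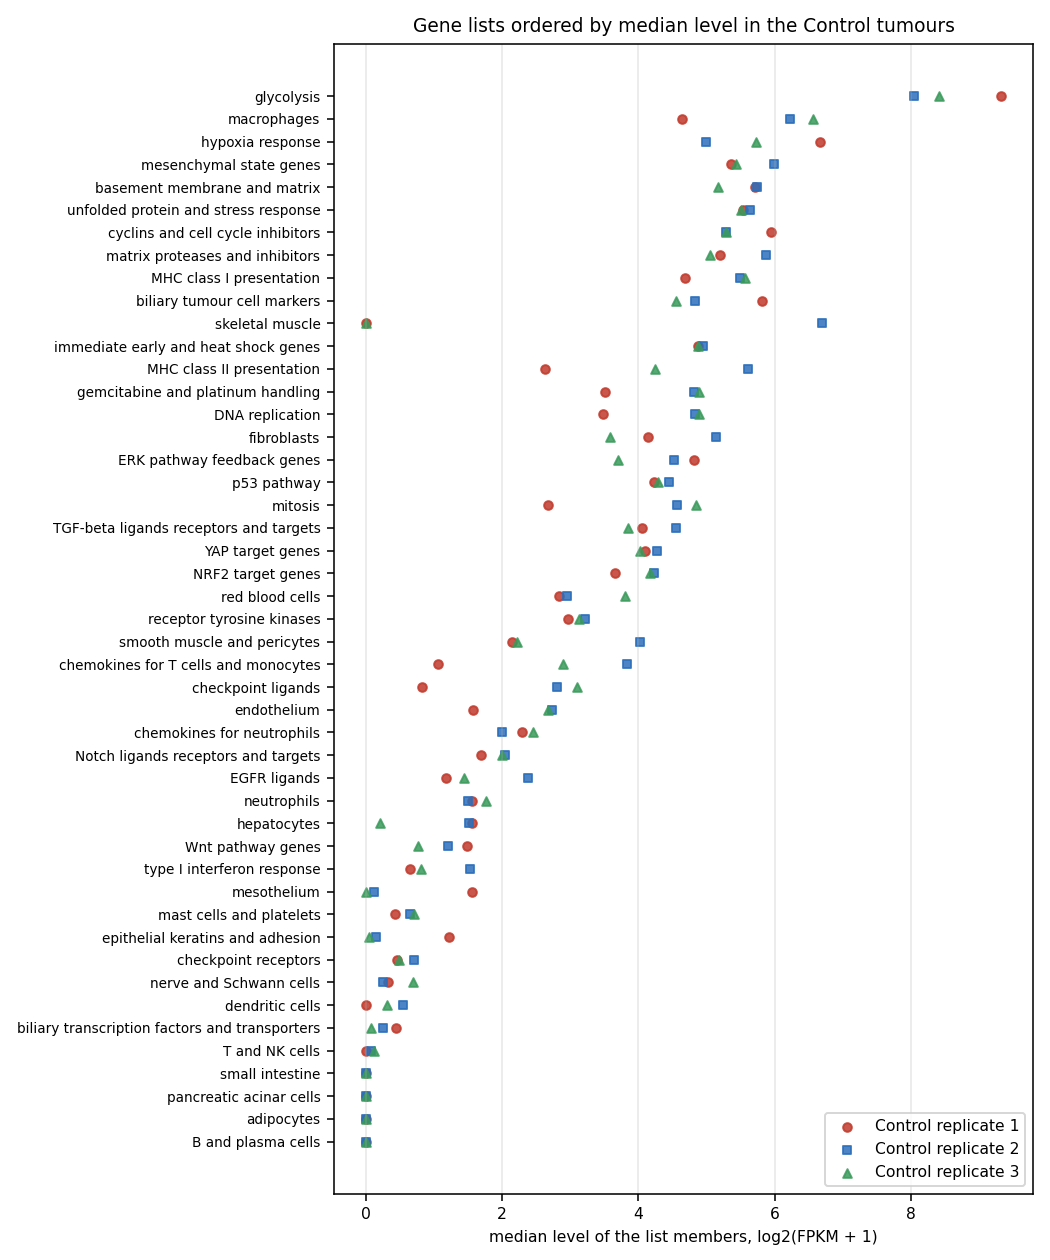
Median level of the members of 47 gene lists on a log2(FPKM + 1) axis in Control replicates 1 (circles), 2 (squares) and 3 (triangles), ordered by the mean of the 3 medians. Glycolysis stands at the top, at 640.4, 262 and 339 FPKM, and lymphocyte, intestinal, pancreatic and fat cell lists lie at or near 0, while the skeletal muscle list splits between replicate 2 and the others.

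Among regulators of the cell cycle, Cdkn2a, which encodes the inhibitors p16 and p19ARF (chromosome 4, 89274471 to 89294653), was at 667, 563 and 603 FPKM with a mean of 611 ± 52.5 FPKM and rank 130. Its neighbour Cdkn2b, which encodes p15, was at 96.3, 136 and 101 FPKM. Both inhibitors were present beside the kinase they bind, Cdk4, at 198, 322 and 338 FPKM, and its partner cyclin D1 (Ccnd1) at 73.7, 122 and 99.6 FPKM. Rb1, the target of that kinase, was at 1.69, 2.54 and 2.597 FPKM. The p53 gene Trp53 was at 32.1, 60.4 and 44.5 FPKM, its target and antagonist Mdm2 at 21.7, 21.8 and 16.4 FPKM and Bax at 74.7, 90.8 and 88.2 FPKM. The p53 target Cdkn1a, encoding p21, was at 110.0, 37.9 and 34.7 FPKM and was highest in replicate 1, as was Gadd45a (70.9, 28.4 and 20.5 FPKM). FPKM per gene does not tell a mutant or truncated transcript from a normal one, so nothing is said here on the function of these genes.

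Receptor tyrosine kinases, which carry growth signals across the membrane, were led by Axl at 83.6, 145 and 208 FPKM, Fgfr1 at 77.8, 54.05 and 19.98 FPKM and Epha2 at 33.1, 51.9 and 41.2 FPKM. Axl was the highest kinase in every library, while the order of Fgfr1 and Epha2 turned round in replicate 3. Met, the receptor of hepatocyte growth factor, was at 9.42, 23.7 and 27.9 FPKM, Ddr1, a collagen receptor, at 16.8, 21.6 and 16.9 FPKM, Igf1r at 11.8, 13.99 and 12.7 FPKM and Erbb2 at 10.7, 12.7 and 10.1 FPKM. The order of these 4 did not hold in every library. Receptors below them were Egfr at 1.93, 1.31 and 0.345 FPKM and Fgfr2, the FGF receptor altered in some human cholangiocarcinomas, at 0.983, 0.3099 and 0.602 FPKM. Of 16 kinases 10 had a mean of at least 1 FPKM, and Erbb4 was listed at 0. None of the 10 spread 4-fold, which for so few genes is near the share of 5.08% of all tested genes.

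Among ligands of EGFR, Hbegf was far the highest at 78.6, 105 and 54.2 FPKM. Next came Ereg (epiregulin) at 3.89, 7.58 and 4.06 FPKM and Areg (amphiregulin) at 1.55, 9.83 and 3.85 FPKM. Egf itself was at 0.517, 0.414 and 0.522 FPKM. All 4 ligands with a mean of at least 1 FPKM were highest in replicate 2, as were 43.8% of all genes averaging at least 1 FPKM. Genes induced by ERK signalling were present in every library, with Myc at 258, 247 and 273 FPKM, Etv4 at 52.7, 66.98 and 49.5 FPKM, the ERK phosphatase Dusp6 at 32.2, 106 and 51.6 FPKM and Dusp4 at 55.99, 21.9 and 10.7 FPKM. Myc was among the even genes of this list, with a log2 range of 0.15.

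In the Notch pathway, which drives bile duct fate, Notch2 was the leading receptor at 22.6, 35.3 and 33.8 FPKM, Jag1 the leading ligand at 13.9, 18.98 and 9.31 FPKM and Hes1 the leading target at 39.04, 36.1 and 15.9 FPKM. Further targets were low, with Nrarp at 0.135, 2.35 and 1.53 FPKM, Hey1 at 0.157, 1.15 and 0.7703 FPKM and Heyl at 0.149, 1.24 and 0.406 FPKM. Among co-activators of the Hippo pathway, Yap1 was at 17.6, 20.95 and 18.4 FPKM and Wwtr1 (TAZ) at 34.6, 54.2 and 40.1 FPKM. Their target Ctgf was at 389, 209.8 and 241 FPKM and Cyr61 at 141, 95.3 and 85.4 FPKM, both highest in replicate 1. TGF-beta signalling was represented by the ligands Tgfb1 (64.7, 87.6 and 59.7 FPKM) and Tgfb3 (25.2, 49.1 and 36.9 FPKM), the receptor Tgfbr2 (15.2, 22.4 and 15.7 FPKM) and the activin subunit Inhba (35.5, 35.5 and 21.4 FPKM). None of the tested genes of the Notch, YAP or TGF-beta lists (8, 12 and 12 genes) spread 4-fold. For lists this small that is near the share of 5.08% of all tested genes that did. Of 12 Wnt pathway genes 7 had a mean of at least 1 FPKM, and the list median was 1.81, 1.30 and 0.696 FPKM. Among its targets of canonical Wnt signalling, not all of which are given here, Axin2 was at 0.3105, 0.0897 and 0.0339 FPKM. Lgr5 was at 0.0567, 0.126 and 0.553 FPKM, while Ctnnb1, the beta-catenin gene, was at 98.7, 159 and 132 FPKM. Notum, a secreted Wnt inhibitor, was highest in replicate 1 at 27.3, 3.47 and 5.95 FPKM.

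Among the lists of immune cell types, that of macrophages had the highest median. Its 14 genes had a median of 23.8, 74.1 and 93.4 FPKM and a summed level of 1678, 5348 and 9181 FPKM. Lyz2, the lysozyme of macrophages and other myeloid cells (chromosome 10, 117277331 to 117282321), was at 186, 2909.7 and 6176 FPKM. The complement chain C1qa stood at 54.8, 293 and 325 FPKM, the growth factor receptor Csf1r at 14.3, 52.3 and 56.03 FPKM, the lipid receptor Trem2 at 15.7, 48.6 and 80.1 FPKM and the surface marker Adgre1 (F4/80) at 2.64, 19.6 and 15.04 FPKM. Each of these was lowest in replicate 1, with replicates 2 and 3 close together for all but Lyz2 and Trem2. Arg1, arginase 1, which depletes arginine and is also a hepatocyte enzyme, was at 469.7, 558 and 1036 FPKM. In bulk RNA a smaller number of macrophages and less RNA per macrophage cannot be told apart.

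Lymphocyte transcripts were close to nothing. None of 13 T and NK cell genes had a mean of at least 1 FPKM, and their summed level was 1.58, 1.56 and 1.06 FPKM. Among CD3 chains of the T cell receptor complex, Cd3e was at 0.621, 0.206 and 0 FPKM and Cd3g at 0, 0.415 and 0.239 FPKM. The coreceptor Cd8a was listed at 0, 0 and 0.0938 FPKM, and the granule protease Gzma and the NK receptor Ncr1 were listed at 0 in all libraries. B and plasma cell genes, likewise with none at a mean of 1 FPKM, summed to 0, 0.632 and 1.14 FPKM, with 4 genes, among them Cd79a, Pax5 and Ms4a1, listed at 0 throughout. Dendritic cell genes were also sparse. Flt3 was listed at 0 and Xcr1 was at 0, 0.0572 and 0.0332 FPKM, while Fscn1, an actin bundler that tumour and mesenchymal cells also make, carried the list at 136, 131 and 95.98 FPKM.

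Checkpoint genes divided into ligands and receptors. Among the ligands, Cd276 (B7-H3) stood at 15.3, 31.4 and 23.5 FPKM, Lgals9 (galectin-9) at 15.5, 26.4 and 26.1 FPKM, Pvr at 20.3, 24.95 and 20.8 FPKM and Cd274 (PD-L1) at 7.28, 5.98 and 7.55 FPKM. Cd86, a ligand of CTLA-4 and CD28 on antigen-presenting cells, was at 0.778, 7.16 and 8.09 FPKM and was lowest in replicate 1, as were the macrophage genes. Among the receptors, Pdcd1 (PD-1) and Ctla4 had little transcript, with Pdcd1 at 0.102, 0.302 and 0.102 FPKM and Ctla4 at 0.225, 0 and 0 FPKM. Tnfrsf9 (4-1BB), an activation receptor of T cells that myeloid and other cells can also express, was the highest of 10 receptors at 68.4, 38.8 and 46.9 FPKM.

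Class I presentation genes were even compared with class II. B2m, the light chain of class I molecules, was at 454, 556 and 561 FPKM, H2-D1 at 192, 254 and 264 FPKM and the peptide transporter Tap1 at 4.204, 6.08 and 6.12 FPKM. None of 11 tested class I genes spread 4-fold and 4 of 7 tested class II genes did, where 5.08% of all tested genes did. The invariant chain Cd74 was at 11.5, 134 and 56.5 FPKM, the alpha chain H2-Aa at 5.72, 80.2 and 22.6 FPKM and the beta chain gene H2-Ab1 at 13.4, 73.03 and 20.8 FPKM, and all 3 were highest in replicate 2 and lowest in replicate 1. Type I interferon response genes, an antiviral program, were low with a list median of 0.572, 1.89 and 0.749 FPKM, and Bst2 (tetherin) was the highest of its 14 genes at 20, 27.2 and 26.2 FPKM.

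The highest chemokines, Ccl6 and Ccl9, are CC ligands that mouse myeloid cells produce. Of 39 chemokine symbols 22 had a mean of at least 1 FPKM. Ccl6 was at 90.9, 261 and 411 FPKM and Ccl9 at 21.7, 76.1 and 138 FPKM. Of the monocyte chemokines that act through CCR2, Ccl2 was at 5.97, 62.02 and 32.7 FPKM and Ccl7 at 6.14, 62.5 and 24 FPKM. All 4 were lowest in replicate 1. The membrane-bound chemokine Cx3cl1 was at 27.3, 53.6 and 37.97 FPKM and Cxcl14 at 31.9, 50.7 and 29.8 FPKM. Of the CXCR3 ligands that attract T cells, Cxcl9 was at 0, 3.16 and 0 FPKM and Cxcl10 at 0.7196, 4.42 and 0.351 FPKM. Among neutrophil chemokines, Cxcl1 was at 25.5, 5.22 and 14.8 FPKM and Cxcl2 at 22.2, 3.704 and 6.48 FPKM, both highest in replicate 1. Csf1, the growth factor of macrophages, was at 22.3, 88.3 and 90.97 FPKM, and Il34, the second ligand of its receptor, at 26.9, 37.6 and 36.03 FPKM. Il34 was the highest of 33 interleukin symbols, of which 18 were listed at 0 throughout.

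Markers of other tissues were checked in each library. Hepatocyte genes summed to 85.05, 68.01 and 11.97 FPKM over 16 genes. Albumin (Alb) was at 35.2, 24.1 and 2.95 FPKM and Apoa1 at 13, 11.2 and 0.894 FPKM, lowest in replicate 3, and the urea cycle gene Cps1 was at 0, 0 and 0.0354 FPKM. Endothelial genes had a median of 1.99, 5.62 and 5.35 FPKM, with Pecam1 at 4.48, 12.4 and 12.3 FPKM and Cdh5 (VE-cadherin) at 4.34, 10.3 and 9.28 FPKM, and 10 of 11 tested members were lowest in replicate 1, as were 56.8% of all tested genes. Of the intestinal and acinar lists only Rbp2 (18.3, 11.8 and 17.1 FPKM) and Apoa4 (9.91, 0.141 and 0 FPKM), and Cela1 (19.8, 23.7 and 36.4 FPKM), had a mean of at least 1 FPKM. The defining genes Fabp2, Vil1, Cpa1 and Pnlip were at or near 0. Of 6 mesothelial genes Msln, mesothelin, which several carcinomas also make, was at 136, 111 and 262 FPKM and Wt1 at 5.89, 1.73 and 0.805 FPKM.

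How far the Control tumours differed was counted over the 11812 genes averaging at least 1 FPKM. Of these, 600 spread at least 4-fold from the lowest to the highest library, which is the 5.08% given above. In 281 of the 600 the library farthest from the other two was replicate 1 on the low side, and in 105 it was replicate 1 on the high side. Replicate 2 stood apart in 102 as high and in 28 as low, and replicate 3 in 36 as high and in 48 as low. Replicates 2 and 3 were at least 4-fold apart in 152 genes, replicates 1 and 2 in 373 and replicates 1 and 3 in 389. Across genes, Spearman correlations of log2(FPKM + 1) were 0.953 between replicates 2 and 3, 0.897 between 1 and 2 and 0.887 between 1 and 3. These describe how alike the profiles were, and genes are not independent replicates. Wide spread was commoner at low level, in 7.52% of genes with a mean of 1 to 5 FPKM and in 3.93% of genes at 100 FPKM or more.

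**Figure D3:**
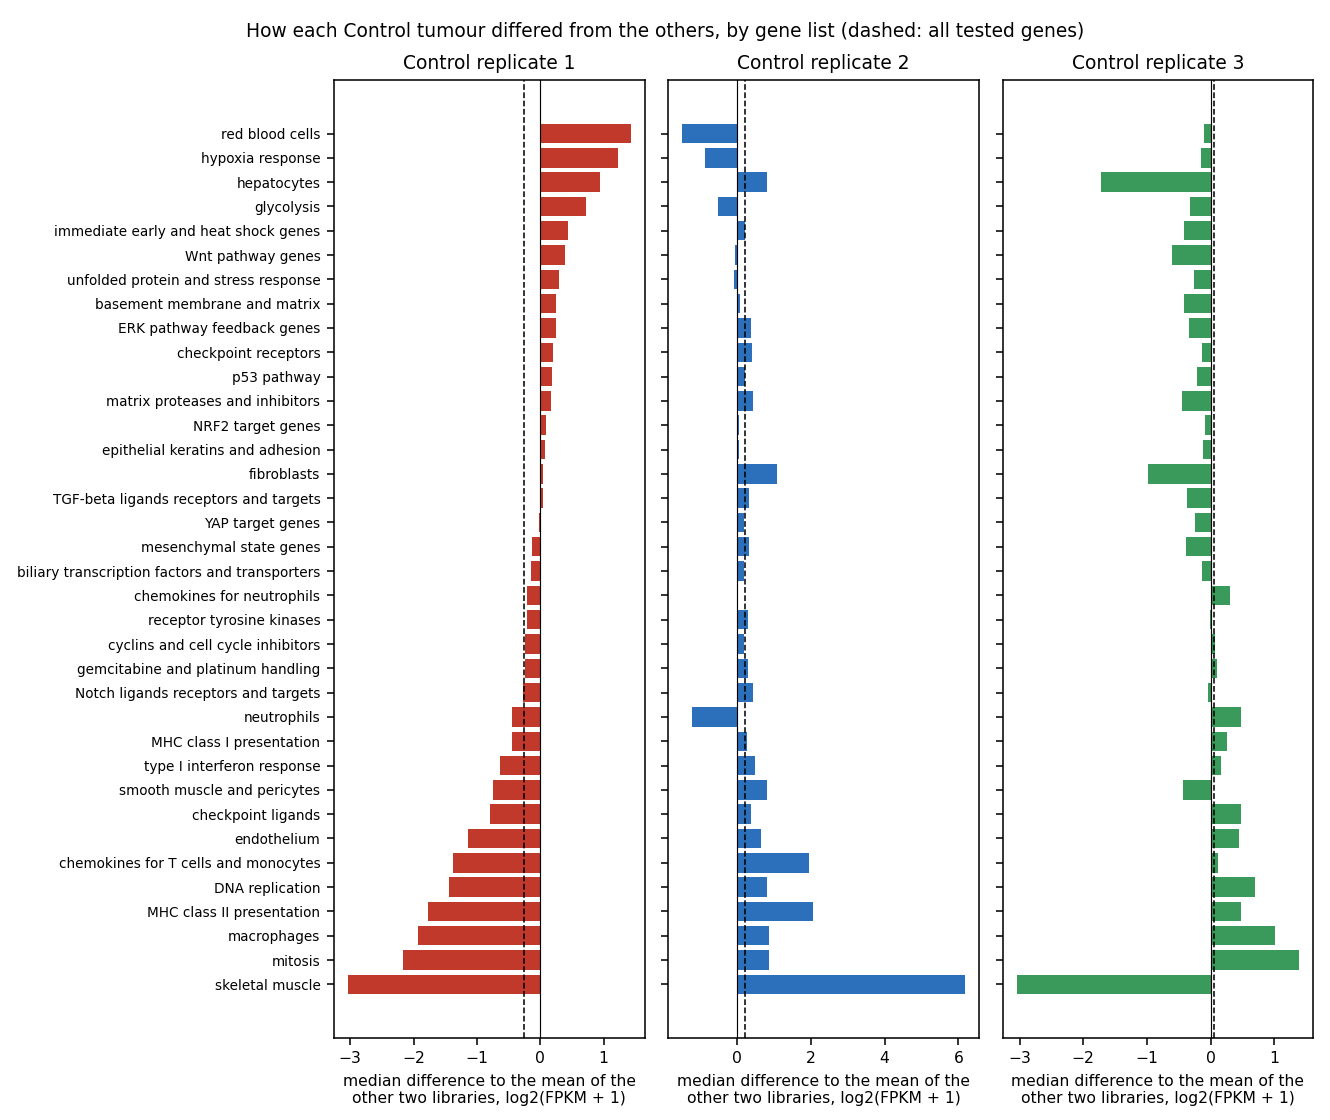
Gene lists with at least 5 tested members are shown, without the lists added once values had been seen. The lists shown were themselves chosen with earlier results of these data known. Bars give the median over members of the difference between each Control library and the mean of the others on log2(FPKM + 1). Dashed lines give the same median over all tested genes (-0.25, 0.20 and 0.06). Macrophage, mitosis, DNA replication and class II lists extend to the left in replicate 1, hypoxia and glycolysis to the right, and the skeletal muscle list dominates replicate 2. Horizontal scales differ between panels.

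Replicate 1 held less of the proliferation program. The lists counted here and below were chosen with earlier results of these data known. All 12 mitosis genes were lowest in it, and all 12 DNA replication genes, where 56.8% of all tested genes were lowest in it. The median difference of replicate 1 to the other two was -2.17 for mitosis and -1.44 for DNA replication on log2(FPKM + 1), against -0.25 over all tested genes. Mki67, the proliferation antigen Ki-67, was at 1.84, 16.5 and 20.5 FPKM. Top2a, topoisomerase II, was at 9.57, 50.3 and 48.9 FPKM, Birc5 (survivin) at 9.66, 60.4 and 103 FPKM and Cdc20, which activates the anaphase-promoting complex, at 10.9, 39.2 and 40.3 FPKM. For replication, the helicase subunit Mcm5 was at 4.38, 24.5 and 21.4 FPKM and Pcna, the sliding clamp, at 59.5, 102 and 131 FPKM. Replicate 1 lay apart from the other two for each of these, by the least for Pcna. Of the mitosis genes 6 were at least 4-fold below the next library, where 1.24% of all tested genes were.

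Mitotic genes are known to share a promoter element, the cell cycle homology region, bound by the DREAM and MuvB complexes. The promoters of Cdc20 (chr4:118437294-118437593, minus strand) and Top2a (chr11:99024140-99024439, minus strand), 250 bases before to 50 after the start in RefSeq on GRCm38.p6, are shown because both genes belong to this group. Capitals mark TTTGAA, searched on both strands.
Cdc20: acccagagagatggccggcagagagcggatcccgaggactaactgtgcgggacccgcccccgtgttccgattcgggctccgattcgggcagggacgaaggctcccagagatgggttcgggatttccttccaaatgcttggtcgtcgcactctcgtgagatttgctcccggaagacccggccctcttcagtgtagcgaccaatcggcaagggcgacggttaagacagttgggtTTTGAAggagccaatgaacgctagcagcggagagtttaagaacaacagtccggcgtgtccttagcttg
Top2a: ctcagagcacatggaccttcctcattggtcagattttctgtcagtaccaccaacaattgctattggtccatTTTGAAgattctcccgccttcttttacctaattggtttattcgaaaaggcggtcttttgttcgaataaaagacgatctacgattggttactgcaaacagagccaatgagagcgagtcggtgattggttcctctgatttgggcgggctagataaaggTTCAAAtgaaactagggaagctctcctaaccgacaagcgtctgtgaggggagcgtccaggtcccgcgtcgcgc
Matches began at -18 in Cdc20 and at -179 and -23 in Top2a, counted from the first transcribed base as 0. The letters TTTGAA or their reverse complement were in 17.9% of 32851 promoters of the same length, in 11.7% of those of tested genes, and in 8 of 11 mitosis genes with a promoter in the table. In Birc5 they were not in this window.

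Macrophage genes moved with the same library. All 13 tested macrophage genes were lowest in replicate 1, where 56.8% of all tested genes were. Their median difference was -1.92, against -0.25 over all tested genes. At least 4-fold below the next library were 6 of the 13, where 1.24% of all tested genes were. For Lyz2, a paralogue, Lyz1, shared 16.1% of its windows of 50 bases, so a small part of the level could be split between them. Class II genes (7 of 7 tested lowest, median difference -1.78) and endothelial genes (-1.14) were lower there as well. Whether the cycling transcripts came from tumour cells or from macrophages and other stroma was not tested.

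The genes of cholesterol synthesis, a list chosen after its values were seen, followed the same course. All 18 members were lowest in replicate 1, and 17 were highest in replicate 3. Of all tested genes 56.8% were lowest in replicate 1 and 31.8% highest in replicate 3. The list was put together with these values known, so its counts are no separate support for a difference. Idi1, isopentenyl diphosphate isomerase, was at 0.311, 9.803 and 17.8 FPKM and Fdps (farnesyl diphosphate synthase) at 8.23, 52.02 and 69.6 FPKM. Replicates 2 and 3 differed less from each other than either did from replicate 1 for both.

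Hypoxia and glycolysis genes took the opposite course. Of 12 hypoxia response genes 11 were highest in replicate 1, as were 13 of 14 glycolytic genes, where 24.5% of all tested genes were. In replicate 2 both lists were low as well, with 9 of 12 hypoxia and 11 of 14 glycolytic genes lowest there, where 14.2% of all tested genes were. Median differences of replicate 1 were 1.23 for hypoxia and 0.71 for glycolysis. Slc2a1, the glucose transporter GLUT1, was at 281, 110.2 and 137 FPKM, Ndrg1 at 138, 30.2 and 36.1 FPKM and adrenomedullin (Adm), a vasodilator peptide, at 37.3, 3.22 and 9.28 FPKM. Car9, the carbonic anhydrase used as a hypoxia marker, was at 9.29, 1.71 and 5.67 FPKM. Vegfa, the angiogenic factor, was at 283, 191 and 67.5 FPKM and lowest in replicate 3. Bnip3, a mitophagy receptor, was at 253, 69.6 and 157 FPKM and Ankrd37 at 97.6, 31.6 and 96.5 FPKM, both lowest in replicate 2. Hif1a, a subunit of the hypoxia-inducible factor and mainly controlled as a protein, ran against its targets at 18.3, 27.7 and 23.3 FPKM and was the exception among the 12.

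Hypoxia-inducible factors bind a short core, ACGTG, in target promoters. The windows of Bnip3 (chr7:138909457-138909756, minus strand) and Ankrd37 (chr8:45999801-46000100, minus strand) are shown as examples of the hypoxia list. Capitals mark the core on either strand.
Bnip3: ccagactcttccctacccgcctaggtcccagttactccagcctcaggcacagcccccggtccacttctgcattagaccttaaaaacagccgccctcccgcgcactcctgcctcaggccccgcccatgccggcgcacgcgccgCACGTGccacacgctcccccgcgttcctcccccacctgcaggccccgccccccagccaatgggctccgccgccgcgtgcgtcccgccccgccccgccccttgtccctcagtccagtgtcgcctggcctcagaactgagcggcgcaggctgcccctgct
Ankrd37: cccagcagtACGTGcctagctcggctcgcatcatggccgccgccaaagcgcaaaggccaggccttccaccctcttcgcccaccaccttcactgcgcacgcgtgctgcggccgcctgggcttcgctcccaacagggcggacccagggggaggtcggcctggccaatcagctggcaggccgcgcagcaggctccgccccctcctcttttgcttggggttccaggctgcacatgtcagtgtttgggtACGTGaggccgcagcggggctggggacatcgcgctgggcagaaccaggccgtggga
In Bnip3 matches on both strands overlapped, beginning at -108 and -107. In Ankrd37 they began at -241 and -6. The core was in 19.6% of all promoters in the table, in 25.7% of those of tested genes and in 9 of the 10 hypoxia genes with a promoter there.

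Metallothioneins, small proteins that bind zinc and copper and that stress and metals induce, stood out further. Mt1 (chromosome 8, 94179082 to 94180327) was at 1752, 266 and 331 FPKM and its neighbour Mt2 (chromosome 8, 94172664 to 94173568) at 1629, 105 and 119.6 FPKM. Both were at least 4-fold higher in replicate 1 than in the next library, where 0.432% of all tested genes were. Their promoters (chr8:94178839-94179138, plus strand, and chr8:94172368-94172667, plus strand) are given since the genes lie side by side and moved together. Capitals mark the core of the metal response element, TGCACNC or TGCGCNC, on either strand, with overlapping matches each counted.
Mt1: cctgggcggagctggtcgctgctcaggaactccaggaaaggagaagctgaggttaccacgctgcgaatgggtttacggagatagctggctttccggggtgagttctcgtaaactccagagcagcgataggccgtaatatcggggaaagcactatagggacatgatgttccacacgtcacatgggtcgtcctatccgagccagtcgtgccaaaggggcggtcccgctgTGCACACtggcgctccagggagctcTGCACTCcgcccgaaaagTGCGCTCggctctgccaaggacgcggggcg
Mt2: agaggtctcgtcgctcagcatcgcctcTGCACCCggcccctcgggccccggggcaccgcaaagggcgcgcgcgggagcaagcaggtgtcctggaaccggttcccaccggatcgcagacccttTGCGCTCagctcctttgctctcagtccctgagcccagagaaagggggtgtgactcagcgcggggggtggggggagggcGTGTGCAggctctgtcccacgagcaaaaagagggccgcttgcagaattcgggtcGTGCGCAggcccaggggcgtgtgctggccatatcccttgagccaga
Mt1 held 3 matches and Mt2 held 4 in 300 bases. At least 1 was in 25.7% of all promoters in the table and in 35.5% of those of tested genes, and 3 or more were in 1.97%. A match describes the letters and does not show that a factor was bound.

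Genes highest in replicate 1 by the largest ratios included secreted defence and acute phase genes. Lcn2, lipocalin 2, an iron-trapping protein of neutrophils and inflamed epithelium, was at 158, 2.14 and 3.78 FPKM. Rarres2, the chemoattractant chemerin, was at 291, 9.401 and 7.59 FPKM, the serum amyloid Saa3 at 434, 63.3 and 129 FPKM, the protease inhibitor Serpina3n at 173, 34.1 and 7.18 FPKM and Plac8 at 173, 28.3 and 10.8 FPKM. In the list of 14 such genes, put together after values were seen, 10 of 13 tested genes were highest in replicate 1. That held for 24.5% of all tested genes. Since the members were chosen with their values known, the count is no separate support for a difference. Of 7 tested neutrophil genes 2, Lcn2 among them, were highest there, while S100a9 was at 15.3, 8.998 and 48.6 FPKM and Retnlg at 1.95, 0 and 3.64 FPKM. Cyp26b1, which breaks down retinoic acid, was at 27.5, 0.559 and 1.26 FPKM, and the transcription co-regulator Cited1 at 17.5, 0 and 0.325 FPKM. Among clock repressors, Nr1d1 was at 42.3, 11.5 and 6.92 FPKM and Ciart at 42.9, 8.91 and 7.53 FPKM, while the clock activator Arntl was even at 10.8, 10.8 and 7.96 FPKM.

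Several library features moved with replicate 1. Ribosomal precursor RNA (Rn45s) was at 3901, 957 and 1049.6 FPKM and the RNA listed as Mir6236 at 5589.7, 1432 and 1466 FPKM. The share of FPKM in ribosomal protein genes was highest there at 39.0%. Summed beta globin genes were at 1213, 397 and 718 FPKM and alpha globin genes at 991, 277 and 270.5 FPKM. Their part in the differences of replicate 1 was not tested. The direction of replicate 1 in the macrophage, mitosis, DNA replication, cholesterol, hypoxia and glycolysis lists was the same when libraries were set to the same total or to the same distribution.

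**Figure D4:**
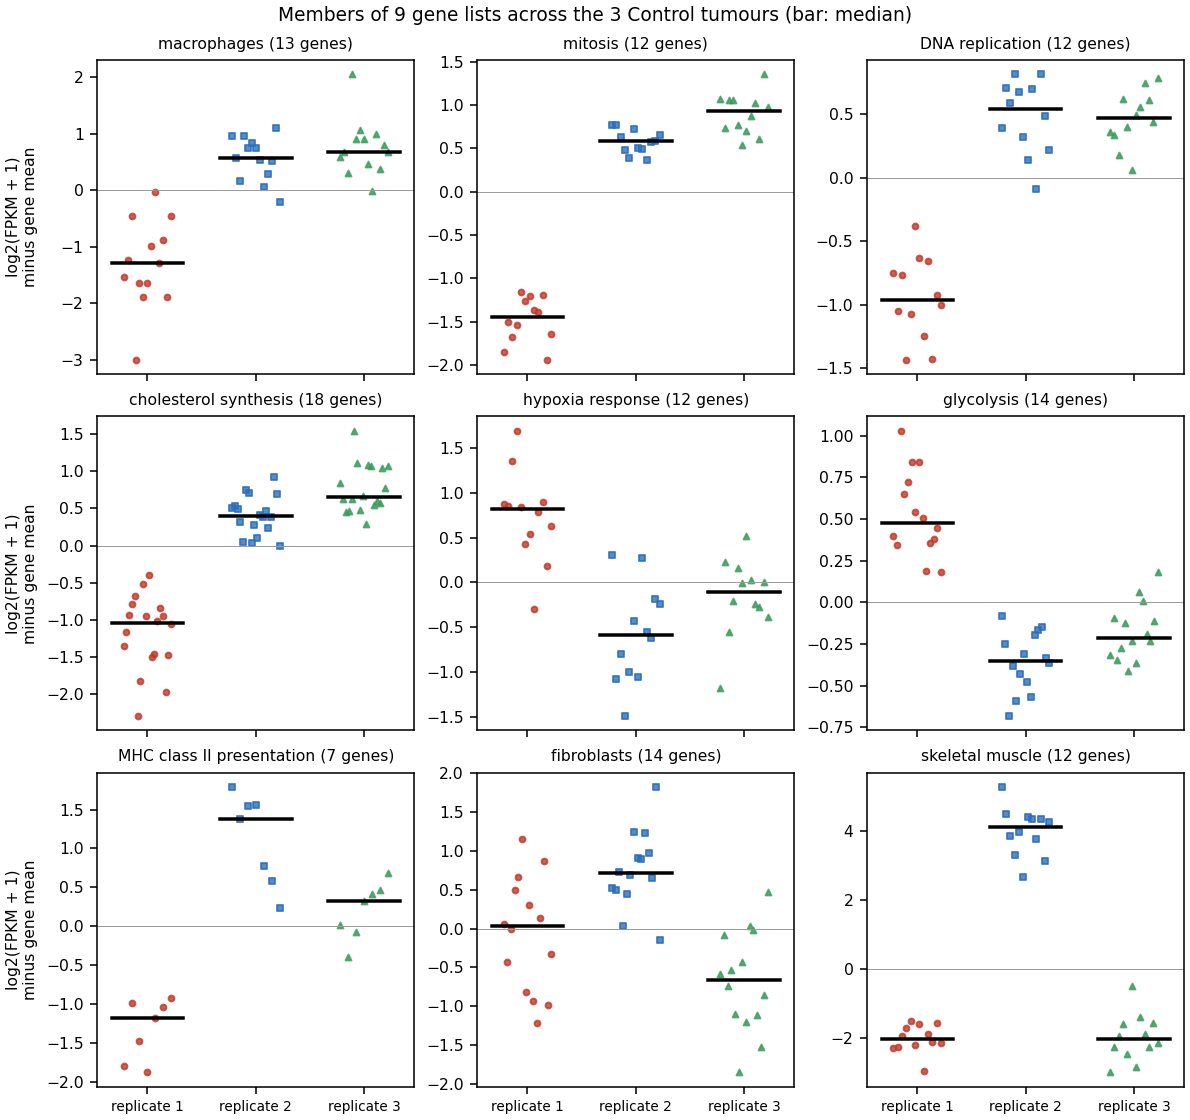
Each point is a tested member of the list named in the panel, as log2(FPKM + 1) minus the gene's mean over the libraries, for Control replicates 1, 2 and 3, with bars at the medians. In replicate 1 the points of macrophage, mitosis, DNA replication and cholesterol genes lie below 0 and most hypoxia and glycolysis genes above it. Skeletal muscle genes are high in replicate 2 alone, and vertical scales differ between panels. The cholesterol list was chosen after its values were seen.

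Replicate 2 was set apart by skeletal muscle transcripts. All 12 muscle genes passed the mean of 1 FPKM through this library. All 12 were at least 4-fold above the next library, where 0.610% of all tested genes were. That count is largely set by the filter and is no separate support for a difference. The summed level of the 12 genes was 7.995, 1390.2 and 14.4 FPKM. The muscle actin Acta1 was at 0.8201, 348 and 0.125 FPKM, creatine kinase (Ckm) at 0, 108 and 0 FPKM and the fast troponin Tnnt3 at 3.01, 178 and 1.09 FPKM. Fast fibre genes were present with the myosin Myh4 at 0, 54.3 and 0 FPKM and the calcium pump Atp2a1 at 0.101, 96.97 and 0 FPKM, and myoglobin (Mb) was at 0, 35.3 and 0 FPKM. Thbs4, a thrombospondin of tendon and muscle, was at 0.523, 54.2 and 0 FPKM. Desmin (Des), shared by all muscle, was at 5.39, 51.01 and 2.47 FPKM.

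Fibroblast and class II genes were also mostly highest in replicate 2, 9 of 14 and 6 of 7 tested. Cthrc1, a secreted protein of activated fibroblasts, was at 3.74, 32.1 and 4.18 FPKM, podoplanin (Pdpn) at 7.66, 46.1 and 18.7 FPKM and tenascin C (Tnc), a matrix protein of wounds and tendon, at 5.34, 60.8 and 5.24 FPKM. The median difference of replicate 2 was 1.07 for fibroblast genes, 2.06 for class II genes and 1.94 for chemokines of T cells and monocytes, against 0.20 over all tested genes. All 8 tested genes of that chemokine list were highest in replicate 2, where 43.8% of all tested genes were. Ccl8, a ligand of monocyte receptors, was at 0.484, 38.1 and 11.98 FPKM, and Il1b, interleukin 1 beta, at 0.485, 9.45 and 1.59 FPKM. The part of muscle and its connective tissue in these levels was not tested.

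Most fibroblast and hepatocyte genes were lowest in replicate 3. Of the tested members, 8 of 14 and 9 of 10 were lowest there, where 29.0% of all tested genes were. The fibroblast list had a median difference of -0.99 and the hepatocyte list of -1.72, against 0.06 over all tested genes. Lum (lumican), a collagen-binding proteoglycan, was at 21.4, 15.3 and 1.79 FPKM and Mmp2 at 42.6, 36.2 and 7.23 FPKM, both lowest in replicate 3 by far. Ogn (osteoglycin), another proteoglycan of this list, was instead highest there at 8.22, 9.45 and 14.97 FPKM. The neutrophil alarmin S100a8 was at 11.4, 8.31 and 36.6 FPKM, highest in replicate 3, and Emp1, an epithelial membrane protein, was at 91.02, 94.7 and 336 FPKM. Among the genes highest there by the largest ratios were the lipoxygenase Alox15 of peritoneal macrophages at 0.594, 0.508 and 12.2 FPKM, the complement receptor Vsig4 of resident macrophages at 0.484, 0.7095 and 5.17 FPKM, the chemokine Ccl24 at 0.883, 0.724 and 5.07 FPKM and the hyaluronan receptor Lyve1 at 1.18, 2.997 and 11.6 FPKM. Genes at least 4-fold above the next library made up 0.127% of all tested genes for replicate 3, and genes at least 4-fold below it 0.161%, against 4 of 10 hepatocyte genes. For replicate 2 the share at least 4-fold below was 0.0847%.

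Sex-linked transcripts differed between the Control libraries, as was seen after the values were examined. Xist, the RNA that coats the inactive X chromosome (chromosome X, 103460366 to 103483254), was present in all 3, at 23.5, 40.7 and 98.1 FPKM. The Y-linked translation factor gene Eif2s3y (chromosome Y, 1010543 to 1028847) was at 5.67, 6.69 and 0 FPKM, Ddx3y at 2.81, 2.12 and 0 FPKM and Kdm5d at 0.461, 0.843 and 0 FPKM. Replicates 1 and 2 thus held transcripts of both kinds, and in replicate 3 the Y-linked genes were listed at 0 while Xist was highest. The labels do not give the sex of the animals or of the tumour cells, and which cells the transcripts came from was not tested.

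Genes of embryonic growth were examined as a list put together after values were seen. H19, an imprinted RNA of fetal tissues, was at 764, 657 and 235 FPKM, while its imprinted neighbour Igf2 was at 0.426, 2.998 and 0.0244 FPKM. The chromatin protein Hmga2, active in embryos and tumours, was at 77.2, 101 and 53.7 FPKM and of the fetal RNA-binding proteins Igf2bp2 was at 60.2, 43.5 and 29.9 FPKM and Igf2bp1 at 8.52, 11.7 and 7.796 FPKM. Afp, the fetal liver protein, was at 0.361, 2.39 and 1.58 FPKM, and Lin28a was listed at 0 in all libraries. H19 and Igf2 were both lowest in replicate 3.

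Some of the widest differences lay between near-identical gene copies and are uncertain. The alpha globin genes Hba-a1 (chromosome 11, 32283511 to 32284465) and Hba-a2 (chromosome 11, 32296489 to 32297298) exchanged places. Hba-a1 was at 989, 6.73 and 12.97 FPKM and Hba-a2 at 2.17, 270.1 and 258 FPKM. Hba-a1 took 99.8% of their sum in replicate 1 and 2.43% and 4.79% in replicates 2 and 3. Of 505 windows of 50 bases in the Hba-a2 transcript, 439 were also in Hba-a1 (GENCODE M21). The proton pump subunit Atp6v0c (chromosome 17, 24163866 to 24169702) was at 108, 1.13 and 122 FPKM, and its processed pseudogene Atp6v0c-ps2 (chromosome 6, 37806086 to 37806550) at 0.264, 126 and 0.529 FPKM. Their sums were 108, 127 and 123 FPKM and so nearly even. Of 416 such windows in the pseudogene 366 were shared with the gene. A level for either copy alone cannot be read from these values.

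**Figure D5:**
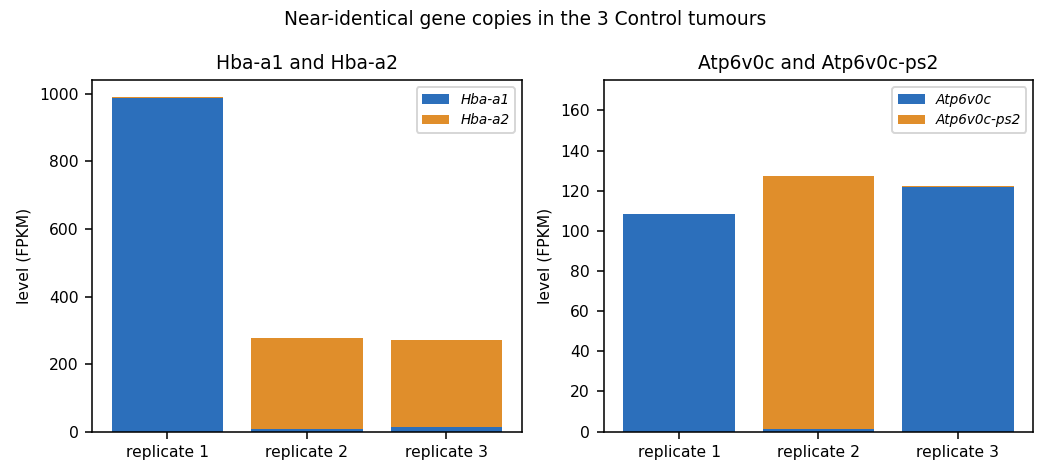
Stacked bars give the FPKM of Hba-a1 and Hba-a2 (left) and of Atp6v0c and its pseudogene Atp6v0c-ps2 (right) in Control replicates 1, 2 and 3. The copy that carries the signal changes between libraries in both pairs, while the sum of the Atp6v0c pair stays between 108 and 127 FPKM.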

How the data were processed

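Bulk RNA sequencing of total RNA was used from 3 Control tumours of a 12-sample series, grouped by title. The other 9 samples were not analysed here. The table deposited by the authors gives FPKM for each symbol. The build mm10 and the tools HISAT2, HTSeq, SAMtools, cutadapt and FastQC are named per the submitters' processing notes. Their versions, the step that made FPKM and the use of strand in counting are not given in the sources used here. Reads from overlapping or antisense genes may therefore be mixed. Steps of whole reads were looked for in the ratios of low values between libraries. No bin held more than 11.6% of genes, so reads were not recovered and depth is unknown.

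Analyses used Python 3.11.15 and pandas 2.3.3. Spread was computed on log2(FPKM + 1) for 11812 genes averaging at least 1 FPKM, referred to as tested, and checked on simulated data. No test was run. Some genes that these rules and lists take in are not reported here. Of 611 list entries 606 were found, 3 by an older symbol. Members and lists were chosen with earlier results of these data known, and 7 of 54 lists were added once values had been seen. The rule for naming took: the 4 markers; the 20 of highest mean; the 4 highest of a list; the 5 highest of a family; per library the 12 with the largest ratio to the next library at 5 FPKM or more; and the 10 of smallest range at 50 FPKM or more. Further genes were named for their role, after their values were seen. Locations are from GENCODE M21 (GRCm38) and promoters from RefSeq (GRCm38.p6).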

Additional observations from a re-analysis of the deposited data

How the results depend on the processing

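No paired analysis was possible because 1 group was described and no test was run. The 600 genes with a 4-fold spread became 1092 with a pseudocount of 0.1 and 222 with a mean of at least 10 FPKM, where fewer genes are counted (6224). The 138 genes at least 4-fold above the next library became 216 and 40 under the same settings. With the same total per library and with quantile scaling the counts were 539 to 633 and 142 to 154. Dropping the filter cannot change either count, since a 4-fold spread on FPKM + 1 implies a mean of at least 1 FPKM. Leaving out a single library gave 152 to 389 genes with a 4-fold spread, lowest without replicate 1, and with 2 libraries left the second count equals the first. Spearman correlations of replicate 1 with replicates 2 and 3 were 0.947 and 0.947 with no filter on low values, which adds genes at 0. With a mean of at least 10 FPKM the correlations were 0.817, 0.780 and 0.915 for replicates 1 and 2, 1 and 3, and 2 and 3; the cause was not tested. Of 54 list medians, 22 moved by more than 1 SD with a pseudocount of 0.1, 4 with quantile scaling and 0 with the same total per library; leaving out 1 of 3 libraries cannot move such a mean by 1 SD. Of 54 ranges of list levels over the libraries, 18 moved by more than 1 SD with a pseudocount of 0.1, 5 with quantile scaling, 5 with the same total, 30 without replicate 1, 13 without replicate 2 and 11 without replicate 3. Setting each library to the same total moved the median difference of all tested genes to -0.34, 0.41 and -0.06 in replicates 1, 2 and 3; each list difference printed in the report kept its sign under that scaling and under quantile scaling. Depth is unknown, so genes below 1 FPKM are given as values alone.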
